A study of Mus musculus with 2 samples.

Results

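The cytosolic ribosomal protein genes encode the protein parts of the ribosomes that translate nuclear messages. They were taken from the deposited count table by symbol: Rpl or Rps followed by a number and no letters other than a, l or x, plus Rplp0, Rplp1, Rplp2 and Rpsa. This gave 81 of 21983 gene entries, 50 of the large subunit and 31 of the small. Pseudogenes and the S6 kinases were left out, and 5 of the 81 were paralogs of another member (Rpl3l, Rpl10l, Rpl36al, Rpl39l and Rps27l). The other 76 are called standard members here.

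The cells were 14837, a mouse pancreatic ductal adenocarcinoma line of the C57BL/6 strain, kept for 48 h in medium conditioned by cancer-associated fibroblasts (CAF medium). The series describes a second library, from 14837 cells in their own conditioned medium. Its values could not be told from the column names, so the media are not compared and every value here is a level in the 1 CAF-medium library. Both groups share the line, the base medium with 10% serum and the time in conditioned medium. No replicate culture was analysed, so no difference has a replicate check and no test was made.

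A ribosome is built from ribosomal RNA and a fixed set of proteins, mostly present as a single copy in each particle, with several copies of the acidic stalk proteins P1 and P2. Messages for ribosomal proteins typically begin with a C followed by a run of pyrimidines, the 5′ terminal oligopyrimidine (TOP) motif, through which mTORC1 and Larp1 tune their translation. Mammalian ribosomal protein genes have left many processed pseudogenes, intronless copies made by reverse transcription of their messages.

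The library held 21269197 counts, and levels are given as counts per 1000000 of that total (CPM). Intervals are exact Poisson or binomial 95% intervals. They cover counting error only, since several reads can be copies of 1 molecule. The median gene among all those with at least 10 counts had 37.9 CPM. Markers of the labelled cell type were present: Krt18 had 1819 CPM, Krt8 797 CPM, Krt7 550.2 CPM, Krt19 418 CPM and Cdh1 370 CPM, while Epcam had 2 counts. Of 6 fibroblast markers, Col1a2, Col3a1 and Dcn were listed at 0, Pdgfrb had 1 count, Col1a1 had 29 counts and Pdgfra had 727 counts. In bulk RNA, fewer cells of a type and less RNA per cell cannot be told apart.

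The TOP motif is shown first because it is the sequence that the family is known for. RefSeq promoters (GRCm38.p6, 250 bases before to 50 bases after the annotated start) were found for 61 of the 81 genes, 10 of them with several starts. A C at the start followed by at least 4 C or T, read on the gene's own strand, stood at 13 of these 61 (21.3%), beside 2.99% of 9132 genes with at least 10 counts. The 4 highest and the 4 lowest of the 13 by level per kilobase are printed below, 20 bases before and 20 bases from the start, with the pyrimidine run from the start in capitals.
Rps18, chr17:33955646-33955685, minus strand: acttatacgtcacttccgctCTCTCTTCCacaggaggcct
Rps21, chr2:180257359-180257398, plus strand: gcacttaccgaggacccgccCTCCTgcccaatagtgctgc
Rpl14, chr9:120571497-120571536, plus strand: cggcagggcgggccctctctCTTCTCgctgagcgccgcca
Rplp2, chr7:141447631-141447670, plus strand: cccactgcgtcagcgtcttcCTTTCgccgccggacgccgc
Rpl28, chr7:4792945-4792984, plus strand: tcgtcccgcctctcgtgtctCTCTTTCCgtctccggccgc
Rps6, chr4:86857348-86857387, minus strand: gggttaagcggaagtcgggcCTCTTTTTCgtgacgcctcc
Rpl38, chr11:114668560-114668599, plus strand: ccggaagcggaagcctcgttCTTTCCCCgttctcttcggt
Rps10, chr17:27635225-27635264, minus strand: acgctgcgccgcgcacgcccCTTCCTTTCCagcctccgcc

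The printed genes span nearly the whole range of levels with the same kind of start: Rps18, a head protein of the small subunit, had 11098 counts and Rps10, another head protein, had 33. The median level of the 13 was 53.6 CPM per kilobase of mRNA and that of the other genes with a promoter 139.5. An annotated start that is off by a few bases hides the motif. With the first letter allowed within 5 bases of the start, 28 of 61 held it (45.9%), beside 23.7% of the 9132 genes. The order of the medians was then reversed, with 147 CPM per kilobase for genes with the motif and 57.2 for those without. CCGGAAG, the core of ETS-family sites, was found on either strand in 25 of 61 promoters (41.0%) and in 21.1% of the 9132. CACGTG, the E-box bound by MYC and MAX, was found in 6 (9.84%) and in 11.8%. TATAAA in the 50 bases before the start was found in 0 of 61 and in 1.72%. These matches describe letters in the window and not binding.

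Nearly all of the family was detected, but at very unequal levels. Of the 81 genes, 78 had at least 10 counts, beside 52.6% of all entries. The exceptions were the paralogs Rpl10l and Rpl39l, listed at 0, and Rpl3l with 1 count. A total of 54 of 81 lay above the median gene in CPM, beside 26.3% of all entries. The median was 171 CPM, with quartiles of 22.1 and 447 CPM. All 81 together held 606853 counts, or 2.85% of the library (2.85% to 2.86%), of which the large subunit took 1.73% and the small subunit 1.12%.

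Levels of different genes are compared here per kilobase of mRNA, using for each gene a GENCODE M21 transcript of GRCm38. On that scale the 81 genes had a median of 190.1 CPM per kilobase, all genes with at least 10 counts 13.0, the 78 mitochondrial ribosomal protein genes 31.8 and 68 genes with Eef or Eif symbols 77.1. The last set holds translation factors and also enzymes that modify them, such as the kinase Eef2k. The standard members spread further than the mitochondrial set. Their upper quartile was 17.1-fold above their lower quartile. For the mitochondrial set the same fold was 4.11 and for the Eef or Eif set 11.1. Within classes of coding sequence shared with other genes, described further on, the fold was smaller. It was 1.89 for the 13 standard members with under 50% shared and 2.68 for the 27 with all shared. For 37 members with from 50% to under 100% shared, among them the paralog Rpl36al, it was 4.79. From the lowest to the highest standard member the range was 1654-fold per kilobase and 2533-fold in counts.

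**Figure D1:**
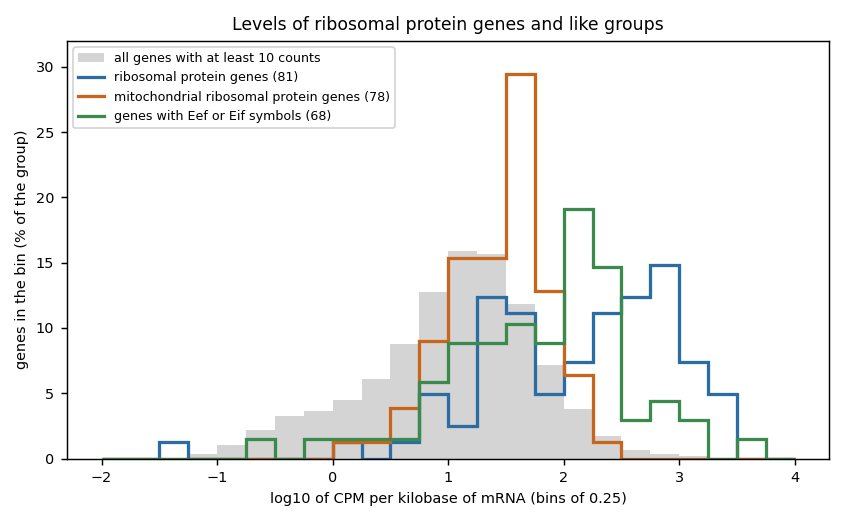
Histogram of levels in the CAF-medium library, as log10 of CPM per kilobase of mRNA in bins of 0.25 on the x axis and percent of the group's genes on the y axis, for 81 cytosolic ribosomal protein genes, 78 mitochondrial ribosomal protein genes, 68 genes with Eef or Eif symbols and, in grey, all genes with at least 10 counts. Genes listed at 0 are not drawn; the cytosolic set spreads widely around its median of 190.1 CPM per kilobase, while the mitochondrial set gathers around 31.8.

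A few genes carried much of the total. The 5 highest held 34.7% of the family's counts and the 10 highest 50.8%. Rplp0 alone held 13.8% and ranked number 4 of all entries by count. At the other end, 31 members had under 1000 counts, 27 of them standard members, whereas 19 had at least 10000.

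The P stalk, the flexible arm that recruits elongation factors to the large subunit, held the highest level in the family and 0.520% of the library. Rplp0, its base, had 3929 CPM (3903 to 3956), or 2894 CPM per kilobase. Rplp1 had 1023 CPM, or 2051 per kilobase. Rplp2, which pairs with Rplp1 in the stalk, had 244 CPM and 254 per kilobase. Per kilobase of mRNA, Rplp0 was thus 1.41-fold above Rplp1 and 11.4-fold above Rplp2. Per kilobase of coding sequence, Rplp0, Rplp1 and Rplp2 had 4132, 2992 and 709 CPM, so the folds depend on the length used. The folds also depend on copies of the genes elsewhere in the genome, described further on. With the whole counts of the copies added, Rplp1 had 3704 per kilobase of mRNA, above Rplp0, and Rplp2 had 680.4. For Rplp2 the copy is Wdr89, whose transcripts hold 55.6% of the Rplp2 coding windows, so 680.4 is not a level of Rplp2 alone. The stalk base protein Rpl12 had 496 CPM per kilobase.

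The 5S RNP lay far lower. Rpl5 and Rpl11 travel with 5S ribosomal RNA and, when free, bind Mdm2, the ubiquitin ligase of p53. Rpl5 had 257 counts, 12.1 CPM (10.7 to 13.7), and Rpl11 had 442 counts, 20.8 CPM (18.9 to 22.8). Per kilobase these are 5.91 and 24.9 CPM. Both lay under the median gene of 37.9 in CPM. Per kilobase of mRNA, Rpl5 lay under and Rpl11 above the 13.0 of all genes with at least 10 counts. The Rpl5 value rests on an annotated transcript of 2045 bases. Per kilobase of coding sequence, Rpl5 had 13.6 CPM and Rpl11 had 38.9. Every 64-base window of both coding sequences was also found in another gene, a property described further on.

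Around the polypeptide tunnel and its exit, 9 proteins were listed and all 9 had at least 10 counts, beside 52.6% of all entries. Of the 9, 6 lay above the median gene in CPM, beside 54 of the 81 members and 26.3% of all entries. The median level of the 9 was 117 CPM per kilobase. Rpl4, which lines the tunnel, led with 43636 counts and 1334 CPM per kilobase. Rpl26, at the exit, had 1201 CPM per kilobase. Rpl3, which reaches to the catalytic centre, had 239 per kilobase. Rpl19, Rpl39 and Rpl35 followed with 165, 117 and 62.6 per kilobase. Rpl17, Rpl31 and Rpl23a, also at the exit, had 34.4, 19.6 and 8.73 per kilobase. Rpl23a is a docking site for the signal recognition particle, and its 104 counts (85.0 to 126) were among the lowest of the subunit.

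Elsewhere in the large subunit, Rpl8, which contacts the peptidyl transferase centre, had 34207 counts and 1890 CPM per kilobase, and Rpl32 had 20354 counts and 1851 per kilobase. With Rplp0, Rpl4 and Rplp1 these were the 5 highest large subunit genes in CPM. The 5 lowest with any count were Rpl3l with 1, Rpl36al with 51, Rpl38 with 73, Rpl23a with 104 and Rpl36a with 222 counts. Rpl38, known from mice with skeletal patterning defects, had 9.43 CPM per kilobase (7.39 to 11.9). The intervals of Rpl38 and Rpl23a overlap, and both lie clear of the subunit's median of 131.

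In the small subunit, the head held 14 listed genes with a median of 220.5 CPM per kilobase and the body 17 with a median of 415. Rps3, at the entry of the message channel, had 20220 counts and 498 CPM per kilobase. Rps15, also of the head, had 1378 per kilobase. Rps10, a target of ubiquitin ligases at stalled ribosomes, was the lowest standard member with 33 counts (22.7 to 46.3) and 1.75 CPM per kilobase (1.20 to 2.46). Rps29 had 47 counts and 5.67 per kilobase. Rps16 had 471 counts, and Rps27a and Rps28 had 24.1 and 41.4 CPM per kilobase. The head therefore held both high and very low members, although in a ribosome these proteins stand side by side.

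In the body, Rps2, beside the message entry, led with 27486 counts and 1295 CPM per kilobase. Rps14, of the platform, had 18965 counts and the highest level of the small subunit, 1494 per kilobase. Rpsa, also known as a laminin receptor precursor, had 19070 counts and 561 per kilobase. The lowest of the body were Rps13 with 156 counts and 12.5 per kilobase, Rps23 of the decoding centre with 299 counts and 15.0, and Rps6, the S6 kinase substrate, with 537 counts and 28.8. The 5 lowest of the subunit in CPM were Rps10, Rps29, Rps13, Rps23 and Rps27a with 326 counts, and Rps2, Rps3, Rpsa and Rps14 were the 4 highest. Rps15a and Rps20 had 5329 and 7506 counts, and their 48.8 and 95.2 CPM per kilobase rest on long annotated transcripts of 5130 and 3706 bases.

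Between the subunits, the median of the large was 97.8 CPM and that of the small 229 CPM, a ratio of 0.426. Per kilobase of mRNA the medians were 131 and 296. The order depended on the members kept. Without the 5 paralogs the ratio was 0.650, and among the 13 standard members with under 50% of their coding windows shared it was 1.86, with the large subunit higher.

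**Figure D2:**
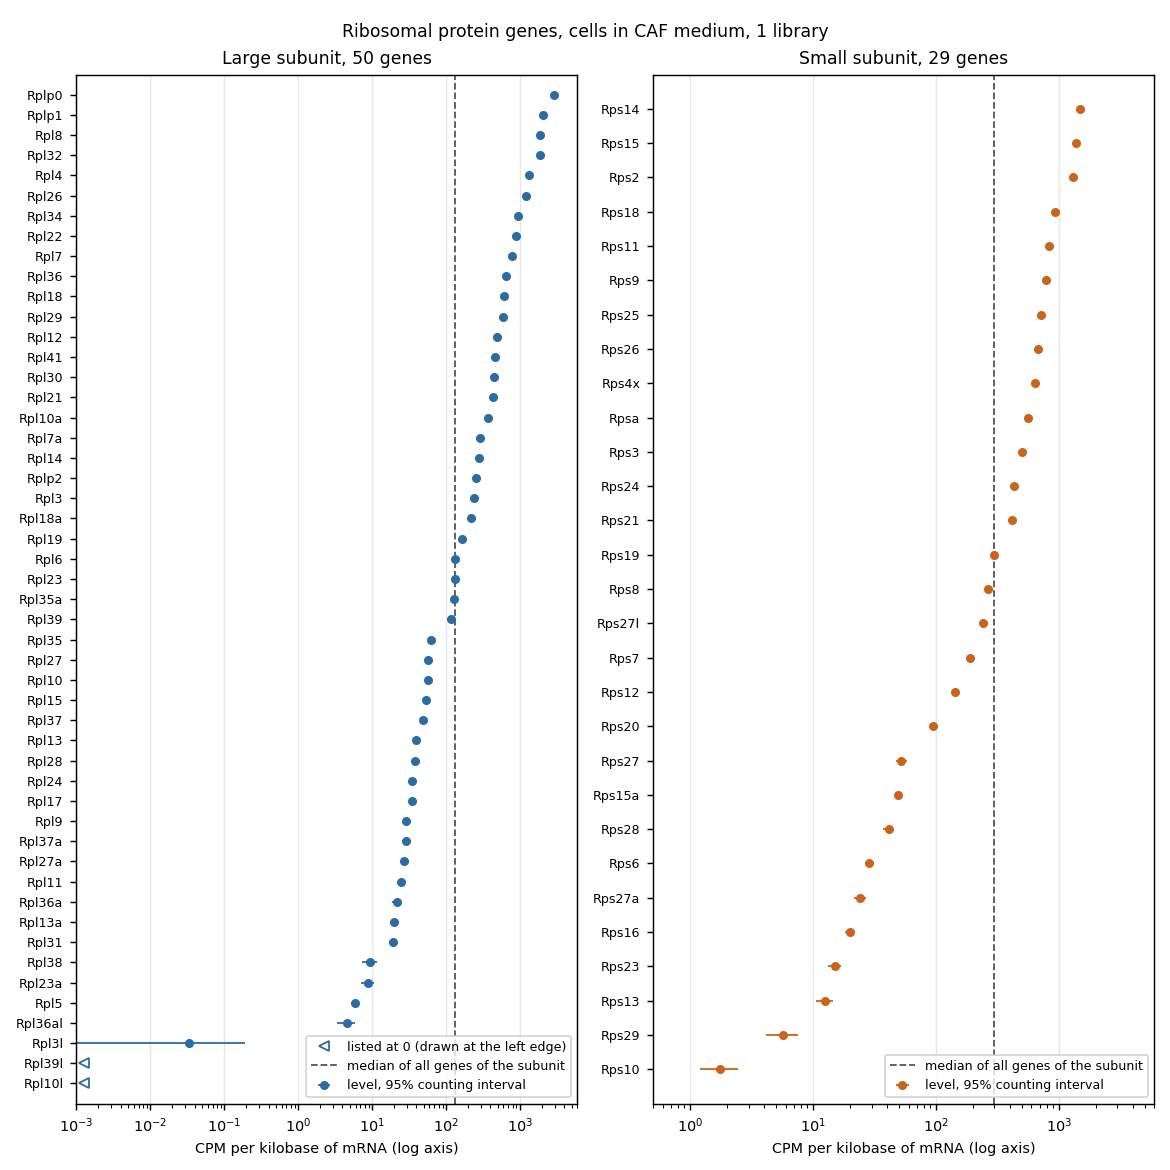
Level of the ribosomal protein genes reported here in CPM per kilobase of mRNA (log axis) with its exact Poisson 95% interval, large subunit on the left and small subunit on the right, dashed line at the median of all genes of the subunit. Rplp0 at 2894 and Rps14 at 1494 lead, Rps10 at 1.75 is the lowest standard member, and open triangles at the left edge are Rpl10l and Rpl39l, listed at 0.

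How much sequence a member shares with other genes varied along with its level. Each coding sequence was read in 64-base windows every 8 bases, and a window counted as shared where it occurred exactly in a transcript of another, non-overlapping gene. Over whole transcripts, 60 of 81 members had at least 10% of windows shared, beside 12.8% of all matched entries. In all, 815 other genes shared a coding window with a member, 777 of them annotated as processed pseudogenes, and 31 of the 815 had an entry in the table.

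Of the 76 standard members, 27 had every coding window shared. Their median was 29.2 CPM per kilobase and 471 counts, 23 of the 27 had under 1000 counts, and together they held 5.60% of the family's counts. They include Rpl5, Rpl11, Rpl38, Rpl23a, Rps6, Rps13, Rps23 and Rps29. A further 36 had from 50% to under 100% shared, with a median of 292 per kilobase. The 13 with under 50% shared, among them Rplp0, Rpl4, Rpl8, Rpl32, Rps3 and Rps14, had a median of 1038 per kilobase and held 47.7% of the family's counts.

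The ratio between the medians of the lowest-sharing and the fully shared class was 35.5 per kilobase of mRNA and 26.7 per kilobase of coding sequence. Across the 76 genes, Spearman's rho between level per kilobase and shared percent was -0.68 and Pearson's r on log10 levels was -0.56. With mRNA length rho was -0.04 for level per kilobase, which is already divided by that length, and 0.22 for counts. With the number of processed pseudogenes that share coding windows, rho was -0.18 and Pearson's r on log10 levels was 0.07. These are correlations across genes of 1 library, which are not independent replicates, and describe this table only. How the authors counted reads that match several places is not given in the sources used here, and its part in these levels was not tested.

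Single genes departed from the pattern in both directions. Rpl12 with 13093 counts, Rpl41 with 5301 and Rps12 with 1518 were among those that had every window shared and yet over 1000 counts. Rpl13a, a protein released from the ribosome in interferon-treated myeloid cells, had 21.7% of windows shared and 449 counts, or 20.2 CPM per kilobase, the only 1 of its class of 13 under 1000 counts. Rps10, the lowest, had 83.3% shared.

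**Figure D3:**
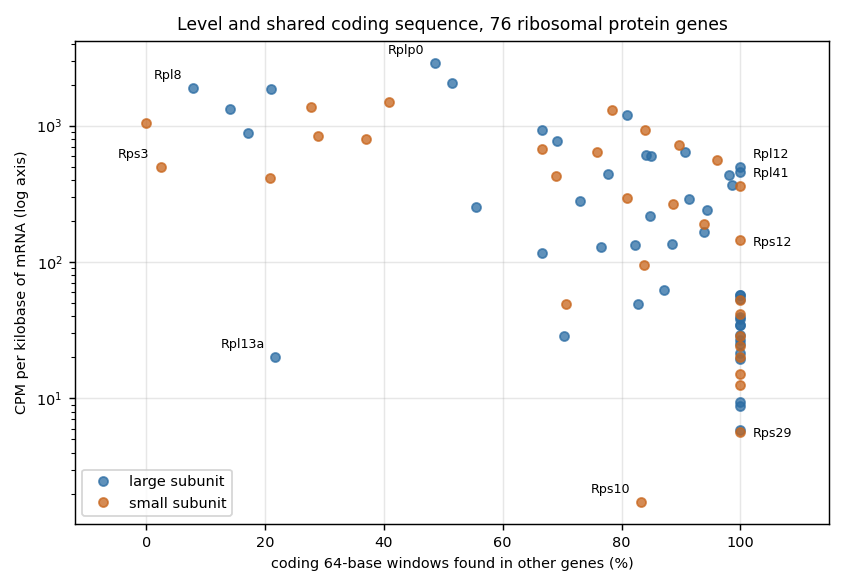
Level in CPM per kilobase of mRNA (log y axis) against the percent of 64-base coding windows found exactly in other genes (x axis) for the 76 standard members, large subunit blue and small subunit orange. The 27 genes at 100% have a median of 29.2 and the 13 genes under 50% a median of 1038. Rpl13a is low among the latter, and Rpl12 and Rpl41 are high among the former. Rpl41 has only 75 coding bases.

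Several members had fewer counts than a copy elsewhere in the genome. A copy is here another gene that holds at least 50% of the member's coding windows: 152 were annotated, and 15 of them, belonging to 13 members, had an entry, with 75372 counts. Rps27, a zinc-finger protein of the small subunit, had 384 counts and its copy Rps27rt 11283, 29.4-fold more (26.5 to 32.6). Rps27 lies at chr3:90212522-90213651 on the minus strand and Rps27rt at chr9:114982366-114982739, also on the minus strand (GRCm38). Their coding sequences differ at 0 of 252 bases, so no base of the coding part tells them apart. They are printed once, beside the paralog Rps27l, with the 60 bases in capitals at which Rps27l differs. Of these, 53 are the last base of a codon.
Rps27 and Rps27rt: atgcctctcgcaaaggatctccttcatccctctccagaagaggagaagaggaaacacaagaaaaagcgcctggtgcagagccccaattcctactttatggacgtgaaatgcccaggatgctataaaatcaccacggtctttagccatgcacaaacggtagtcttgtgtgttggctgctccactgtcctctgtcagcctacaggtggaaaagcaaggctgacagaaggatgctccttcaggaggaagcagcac
Rps27l: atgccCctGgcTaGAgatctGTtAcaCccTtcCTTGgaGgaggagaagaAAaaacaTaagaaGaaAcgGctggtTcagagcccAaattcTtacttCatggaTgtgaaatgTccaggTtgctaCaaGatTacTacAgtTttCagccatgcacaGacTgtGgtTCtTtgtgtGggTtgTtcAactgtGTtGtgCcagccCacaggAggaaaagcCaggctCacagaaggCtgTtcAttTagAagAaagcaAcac

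The same imbalance was seen for Rps23, where Gm5148 had 10839 counts against 299, 36.3-fold more (32.3 to 40.8). Rps12 had 1518 counts and Rps12-ps3 9977, with 0 of 396 coding bases different. Rpl35 had 1260 counts and Gm2000 7657, with 1 of 369 different. Rpl9 had 459 counts and Rpl9-ps6 3293, with 1 of 576 different. In these 5 pairs the gene known to make the protein held fewer counts than the copy.

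In further pairs the gene held more counts than its copy, or the difference was smaller. Rplp1 had 21765 counts and Gm10073 17542. Rps7, which can also bind Mdm2, had 3316 counts and Gm9493 2887. Rps18 had 11098 counts against 1827 for Gm11361 and 125 for Gm10260. Rpl10, on chromosome X, had 968 counts and Rpl10-ps3 255, although 0 of 642 coding bases differ. Rplp2 had 5199 counts, and Wdr89, whose transcripts hold 55.6% of the Rplp2 coding windows, had 8752. With the copies' counts added, the family held 3.21% of the library and its median was 249 CPM. Whole counts were added, also those of Wdr89 and of Uimc1, whose transcripts hold 69.8% of the Rpl29 coding windows.

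**Figure D4:**
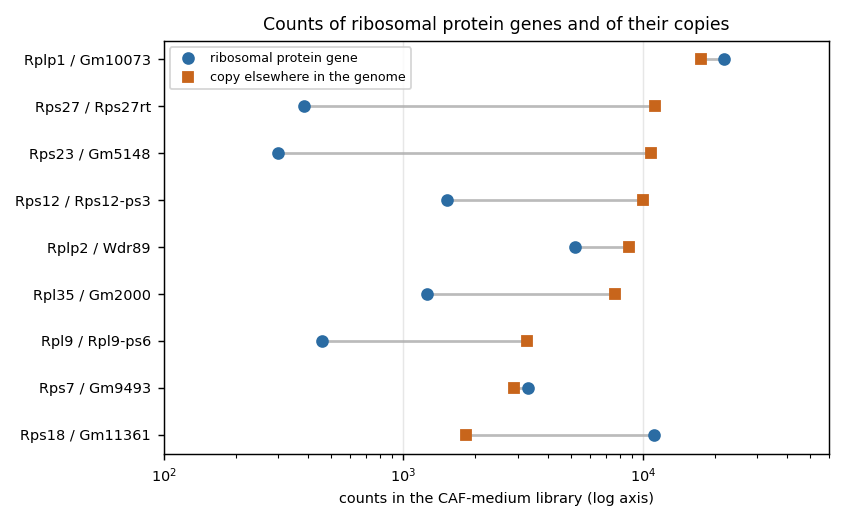
Counts (log axis) of each ribosomal protein gene (circle) and of its copy (square) for 9 pairs in which the copy had at least 1000 counts. The copy lies above the gene for Rps27, Rps23, Rps12, Rplp2, Rpl35 and Rpl9, and below it for Rplp1, Rps7 and Rps18.

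The paralog pairs fell into 3 kinds. The tissue-restricted paralogs were absent or nearly so: Rpl3l, known from heart and skeletal muscle, had 1 count beside 6868 for Rpl3, a ratio of 6868 with an interval from 1232 to 271311. Rpl10l, a retrogene active in the testis, was listed at 0 beside 968 counts for Rpl10, at least 323-fold lower against a floor of 3 counts (0.141 CPM). Rpl39l, also known from testis, was listed at 0 beside 1524 for Rpl39, at least 508-fold lower against the same floor.

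In a second kind both genes were present and the standard member was higher. Rpl22, an accessory RNA-binding protein, had 8968 counts and Rpl22l1 2737, a ratio of 3.28 (3.14 to 3.42). Rpl7 had 19172 and Rpl7l1, which lies outside the symbol rule, 5875, a ratio of 3.26 (3.17 to 3.36) that became 7.31 per kilobase of mRNA. Rpl36a had 222 and Rpl36al 51, a ratio of 4.35 (3.20 to 6.02). The genes of a pair also differed in the coding windows shared with other genes. The share was 17.1% for Rpl22 and 78.9% for Rpl22l1, and 69.1% for Rpl7 and 10.6% for Rpl7l1. Rpl36a had every window shared and Rpl36al from 50% to under 100%. The higher gene thus had the smaller share only for Rpl22. The part of sharing in these ratios was not tested.

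In Rps27 and Rps27l the order was the other way round. Rps27l, a p53-inducible gene, had 2546 counts, 6.63-fold above the 384 counts of Rps27, and the ratio of Rps27 to Rps27l was 0.151 (0.135 to 0.168). The order depends on the copy: Rps27 and Rps27rt together had 11667 counts, above Rps27l. Rps4x had 13243 counts, and its partner Rps4l had no entry here.

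**Figure D5:**
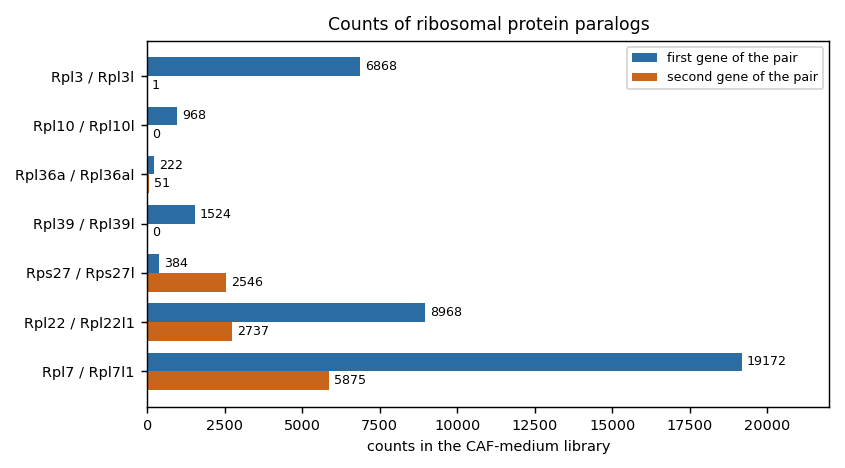
Counts of both genes of 7 ribosomal protein paralog pairs in the CAF-medium library (linear axis from 0), the first-named gene in blue and the second in orange. The second gene is higher only for Rps27 and Rps27l, and Rpl3l, Rpl10l and Rpl39l have 1, 0 and 0 counts.

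Ribosomal proteins that carry other symbols also differed in level. Rps3a1 had 10916 counts and 525 CPM per kilobase. Fau, whose product is cleaved into a ubiquitin-like part and Rps30, had 905 counts and 83.8 per kilobase. Rack1, the scaffold on the small subunit head, had 41439 counts and 1346 per kilobase. Of its coding windows 0% were shared, beside 82.6% for Rps3a1 and 100% for Fau.

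Diamond-Blackfan anaemia is a red cell aplasia caused by loss of a ribosomal protein gene copy. Of 11 genes mutated in it, all 11 had at least 10 counts, beside 52.6% of all entries. Of the 11, 8 lay above the median gene in CPM, beside 54 of the 81 members and 26.3% of all entries. Rps19, the gene most often affected, had 4881 counts and 296 CPM per kilobase. Rps26 and Rps24 had 679 and 429 per kilobase. Rpl5, Rpl11 and Rps10 were the 3 below the median gene in CPM.

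Factors that accompany single ribosomal proteins before assembly had a median of 62.5 CPM. Of 10 listed, 9 had at least 10 counts, beside 52.6% of all entries, and 7 lay above the median gene in CPM, beside 26.3%. Aamp was the highest with 229 CPM, and Pdcd2, which attends Rps2, was listed at 0 although Rps2 had 1292 CPM. Pdcd2l, in the same list, had 512 counts, or 24.1 CPM. Heatr3, which carries Rpl5 and Rpl11 into the nucleus, had 66.7 CPM, or 20.5 CPM per kilobase, between Rpl5 at 5.91 and Rpl11 at 24.9 per kilobase. A further 15 genes known for a TOP motif were listed, such as Eef1a1, Eef2, Pabpc1 and Rack1. All 15 lay above the median gene in CPM, beside 26.3% of all entries. The median level of the 15 was 268 CPM per kilobase. Larp1, the TOP-binding repressor, had 460.1 CPM.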

How the data were processed

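RNA of 14837 cells was sequenced, 1 library per conditioned medium. The tools named are HISAT2 2.1.0 and StringTie, with mm10 as the build, per the submitters' processing notes. For the counting method, strand setting, annotation and multiply matching reads, a description is not given in the sources used here. Values are whole-number counts per gene symbol as deposited by the authors, not scaled. Of 2 value columns, 1 carries the CAF-medium library's name, and 1 value column matched neither library's labels and was not used.

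Counts were divided by the total of 21269197 to give CPM, with exact Poisson or binomial 95% intervals for counting error. Low counts were multiples of 3 in 36.0% of entries, against 33.3% of whole numbers, so intervals were also computed on counts divided by 3. All 81 members matched GENCODE M21 (GRCm38). The mRNA length is that of the shortest best-supported transcript with the principal coding length. Windows of 64 bases were taken every 16 bases on the longest transcript and every 8 bases on the coding sequence. Of these steps, only the Poisson and ratio intervals were tested on simulated counts. Another 4 entries with duplicated symbols stayed in the total and out of lists.

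Members and lists were chosen with earlier results of these data known. Genes are named by role, by the 5 highest and lowest of each subunit, as paralogs and as copies. Some genes that meet these rules are counted but not reported here by name or drawn as a named row. The measures per kilobase of mRNA, the classes of shared coding windows, the copies, the starts printed, and the genes named for these were chosen after seeing the data. Alternatives changed the minimum count, the total, the length and the members kept. Scripts ran under Python 3.11.15 with pandas 2.3.3, numpy 2.4.6 and scipy 1.17.1, and figures were drawn with matplotlib 3.10.9.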

Additional observations from a re-analysis of the deposited data

How the results depend on the processing

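No paired analysis was possible because only 1 library was used and no result comes from a test. The median of 171 CPM was 203 with members of at least 10 counts, 237 with at least 100 counts and 251 with members under 10% of windows shared. Added after seeing the data, it was 594 with members under 50% of coding windows shared, 249 with the counts of copies added and 229 without the 5 paralogs. The share of 2.85% became 2.88% without the mitochondrial genome, 2.91% with 3 genes of other symbols added, 2.46% without Rplp0 and 3.21% with copies. The ratio of large to small subunit medians, 0.426, was 0.394 per kilobase of all exons, 0.543 of the longest transcript, 0.615 with at least 10 counts and 0.650 without paralogs. It reversed to 1.86 under 50% of coding windows shared, without paralogs. Per kilobase of all exons, longest transcript and mRNA, the ratio of Rps27 to Rps27l was 0.118, 0.129 and 0.218, that of Rpl22 to Rpl22l1 2.24, 3.05 and 3.82, and that of Rpl7 to Rpl7l1 4.24, 5.33 and 7.31. Rpl36a to Rpl36al was 6.84 per kilobase of the longest transcript. These paralog ratios rest on the same counts divided by different annotated lengths. Why the subunit ratio shifted with the members kept was not tested. For all exons, longest transcript and mRNA in turn, the lower bound for Rpl10 over Rpl10l, 323 in counts, was 161, 355 and 413, and that for Rpl39 over Rpl39l, 508 in counts, was 294, 668 and 668. The other 8 values stayed within the counting interval of the first value. The media were not compared, so that ratio and its scaling alternative were not run. Counting sets the precision: the median interval spanned 6.02% of the count, and 10.5% with counts divided by 3.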

Other observations

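Some genes outside the family hold a shorter stretch of a member's coding sequence, under the 50% used above for a copy. Gadl1, annotated as protein coding, holds 25.5% of the coding windows of Rpl24 and had 5591 counts, beside 500 for Rpl24, a large subunit protein that bridges to the small subunit. Rpl36a-ps1 holds 46.9% of the windows of Rpl36a and had 349 counts, beside 222. Gm10269 holds 48.7% of the windows of Rpl35 and had 661 counts, beside 1260. BC004004 and Med21 hold 47.2% of the windows of Rpl21 and 36.1% of those of Rps26, and had 904 and 845 counts beside 8279 and 9838. Nphs1 and Gm8225, with 26.2% of the windows of Rps12 and 20.6% of those of Rps2, were listed at 0. The members lie on 19 chromosomes, 14 of them on chromosome 7. These genes were chosen after their values were seen.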
